A study of Mus musculus with 2 samples.

Results

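The genes described here are the long intergenic noncoding RNAs (lincRNAs) that were clearly present in the nucleoplasmic RNA of lipid A-treated mouse macrophages. A gene was a member when at least 1 of its transcripts carried the biotype lincRNA and its deposited level was at least 5 TPM, a share of the library corrected for transcript length, in both libraries. Malat1, Neat1, Gas5 and the Snhg genes were left out by name. Of 55536 annotated genes, 6058 had a lincRNA transcript, 110 of these passed the level, 10 were removed by name, and 100 remained. Members were thus selected on their TPM values, so their levels are a description. The same level was passed by 13.7% of all annotated genes and by 30.9% of protein-coding genes, and 1.65% of the genes with a lincRNA transcript were members.

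Both libraries came from bone marrow-derived macrophages of C57BL/6J mice, primary cells grown from marrow, and they form 1 group with no untreated control. The cells had been exposed for 12 h to lipid A at 100 ng/ml. Lipid A is the membrane anchor of bacterial endotoxin and the ligand of Toll-like receptor 4. It was then washed out for 12 h and given again at 100 ng/ml for 25 min, and ribosomal RNA was depleted from total RNA of the nucleoplasmic fraction, which the labels elsewhere call nuclear. Replicate 1 started from 500 ng and replicate 2 from 1 µg; the labels give both an identical donor entry, so their differences may only be technical, and the sex of the mice was not collected.

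The libraries held 20196408 and 19588980 expected counts (replicates 1 and 2). All 8 macrophage markers examined, among them Adgre1, Csf1r and Lyz2, were above 10 TPM in both libraries, with summed levels of 3525 and 3061 TPM. The summed levels of the neutrophil, T cell, B cell, erythroid, mast cell and dendritic cell lists were at most 1.42 TPM, and of the stromal and endothelial list 2.61 and 1.81 TPM. With 2 libraries of a single treatment, no difference between conditions could be tested, and n = 2 for each SD below. In bulk RNA, fewer cells that express a gene and less of its RNA per cell cannot be told apart.

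LincRNAs are transcripts from between protein-coding genes that carry no long open reading frame. Many stay in the nucleus near the site where they are made, where some bring chromatin regulators to genes, as Xist does on the inactive X chromosome. Others act by binding proteins, by being transcribed near a neighbouring gene, or as precursors from which microRNAs are cut.

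Of the 100 members, at least 10 held mature microRNAs of the RefSeq table (GRCm38.p6) on their own strand. For these, 33 mature sequences from 18 microRNA genes were listed. Shown are some of those that share a seed (bases 2 to 8, in capitals), the part that pairs with target RNAs. Those best known in macrophages are shown too. Seeds group the host genes by the targets their products can pair with. The products let-7a-1-3p and let-7f-1-3p of 6720427I07Rik, which share the seed UAUACAA, are not printed. Dleu2 holds in an intron a pair with the seed AGCAGCA, which are known repressors of cell cycle genes:
miR-15a-5p: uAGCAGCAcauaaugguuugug
miR-16-5p: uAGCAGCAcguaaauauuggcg
The let-7 family, with the seed GAGGUAG, comes from 2 members, Mir99ahg on chromosome 16 (let-7c) and 6720427I07Rik on chromosome 13 (let-7a, let-7d and let-7f):
let-7c-5p: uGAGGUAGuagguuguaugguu
let-7a-5p: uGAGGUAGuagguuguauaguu
let-7d-5p: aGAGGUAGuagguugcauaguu
let-7f-5p: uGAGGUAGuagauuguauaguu
A330023F24Rik holds in an exon 2 products with the seed AGCACCA:
miR-29b-3p: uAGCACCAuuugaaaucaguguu
miR-29c-3p: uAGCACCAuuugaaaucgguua
Mir155hg, whose exon holds the inflammation-induced miR-155, and Mir142hg, whose intron holds the blood cell-specific miR-142a, give products with seeds of their own:
miR-155-5p: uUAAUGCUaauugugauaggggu
miR-142a-5p: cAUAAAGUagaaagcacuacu
miR-142a-3p: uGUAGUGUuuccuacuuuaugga
Inside members, 20 microRNA gene entries lie on the same strand. They include Mir1949 and Gm49347 of AC121821.1. Members on the chromosome of AC121821.1 were left out when mature microRNAs were collected. Its absence from the 10 hosts is thus not a result of the search. All 20 had 0 expected counts in both libraries. These entries are 64 to 111 bases long and had an effective length of 0 bases in both libraries, so the 0 counts say nothing about the microRNAs. The values given are those of the host transcripts.

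Members ranged over several orders of magnitude. The mean level was between 5 and 10 TPM for 32 members, between 10 and 20 TPM for 32, between 20 and 50 TPM for 19, between 50 and 100 TPM for 7, and above 100 TPM for 10. The median member was at 14.4 TPM in replicate 1 and at 12.9 in replicate 2. Together the members held 1.13% and 1.58% of expected counts but 0.512% and 2.68% of TPM. Rmrp, Gm26917 and Gm42418 alone made up 34.2% of the members' TPM in replicate 1 and 90.1% in replicate 2, and the other 97 members came to 0.337% and 0.267% of all TPM.

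**Figure D1:**
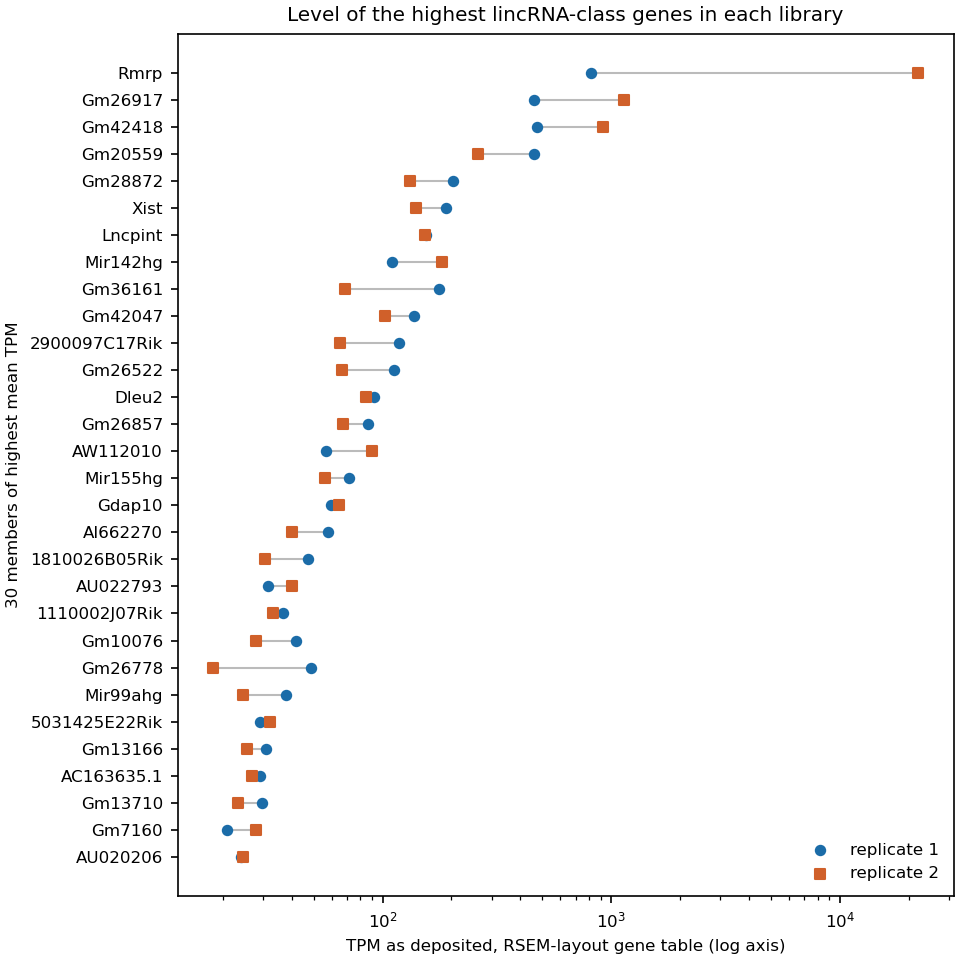
Deposited TPM (log axis) of the 30 members of highest mean level, with replicate 1 as circles and replicate 2 as squares joined by a line. Rmrp, at 813 and 22113 TPM, has the widest gap drawn, while Lncpint was at 154 and 153 TPM.

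The leading members lie on or beside genes of structural RNAs. Rmrp, at 813 TPM in the first library and 22113 TPM in the second (mean 11463 ± 15061 SD), is a 281-base lincRNA model on chromosome 4. It shares 271 bases, on the same strand, with a second entry of that name, the ribozyme gene for the RNA of the RNase MRP enzyme, which acts in ribosomal RNA processing. The ribozyme entry was far higher, at 45893 and 54810 TPM. The 2 models share 96.0% of the lincRNA model's 31-base words (31-mers), and the lincRNA model received 1.96% of the pair's counts in replicate 1 and 30.7% in replicate 2.

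Gm26917, at 461 and 1133 TPM (mean 797 ± 475 SD), and Gm42418, at 473 and 919 TPM (mean 696 ± 315 SD), are single-exon models on chromosome 17, both higher in replicate 2. RefSeq names Gm42418 Rn18s-rs5, a copy related to 18S ribosomal RNA. Of its exon, 99.5% lies opposite the ribosomal RNA entry CT010467.1, which was at 45.1 and 463 TPM. Both members were thus higher in the library where that entry was higher, and the part that remaining ribosomal RNA played in their levels was not tested.

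Gm28872, at 203 and 132 TPM (mean 168 ± 49.9 SD), is a 158-base model of chromosome 4 that rests on 17 and 33 expected counts. Its effective length, the number of positions at which a fragment of the library could start, was 4.22 bases in replicate 1 and 11.5 bases in replicate 2. In replicate 1 a count of 17 thus stands for a higher level than that of Xist, which had 65501 counts. The sequence is shown whole because most of it is the complement of another gene, Rnu11, the U11 RNA of the minor spliceosome. Rnu11 had 0 counts in both libraries, but its effective length was only 1.06 and 3.48 bases. Its 0 counts thus say little about the level of U11 RNA. Capitals mark the 134 bases that lie in 31-mers shared with transcripts of other genes (GENCODE M21, chr4:132270056-132270213, plus strand):
Gm28872: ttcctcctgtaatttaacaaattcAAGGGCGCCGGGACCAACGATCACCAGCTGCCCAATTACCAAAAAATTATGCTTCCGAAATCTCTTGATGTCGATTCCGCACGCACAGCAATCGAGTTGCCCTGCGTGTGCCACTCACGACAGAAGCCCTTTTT
Whether the counting used strand is not given in the sources used here, so reads of a member and of a gene opposite to it cannot be told apart by these tables.

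Genes of the X-inactivation centre were present at very different levels. Xist, the RNA that coats and silences 1 X chromosome, was at 190 and 140 TPM (mean 165 ± 35.1 SD). Jpx, an activator of Xist, was at 13.3 and 7.26 TPM (mean 10.3 ± 4.26 SD), and Ftx, another positive regulator, was at 9.31 and 5.63 TPM (mean 7.47 ± 2.60 SD). All 3 were higher in replicate 1 in TPM, as were 70.4% of genes with at least 10 expected counts in both libraries. Tsix, which is antisense to Xist and has no lincRNA transcript, was at 0.14 and 0.06 TPM. The 17946-base transcript Xist-201 held 97.8% and 94.9% of the gene's TPM.

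Among microRNA hosts, Mir142hg was highest, at 110 and 182 TPM (mean 146 ± 51.1 SD), but as a 269-base model it rested on 131 and 358 counts. Dleu2 was at 91.6 and 84.7 TPM (mean 88.2 ± 4.91 SD) on 5130 and 3969 counts. Mir155hg was at 71.0 and 56.2 TPM (mean 63.6 ± 10.4 SD). These 3 hosts stood well above the others.

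Mir99ahg was at 38.0 and 24.4 TPM, and 6720427I07Rik, the other let-7 host, was at 22.6 and 11.4 TPM. A330023F24Rik, the miR-29 host, was at 13.3 and 12.5 TPM. The remaining hosts found, Gm37233 (miR-5103), Ftx (miR-421 and miR-374b), 4833445I07Rik (miR-191 and miR-425) and 2900076A07Rik (miR-1839), had means between 6.76 and 13.1 TPM. Mir22hg was at 92.4 and 96.5 TPM but was no member, since none of its transcripts has the biotype lincRNA, and Mir17hg, the precursor of a growth-promoting cluster, was below the level at 2.35 and 1.07 TPM.

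Several members have described functions. Lncpint, a p53-induced RNA, was at 154 and 153 TPM (mean 154 ± 0.530 SD), the smallest relative spread in deposited TPM among the 12 highest members. In TMM-scaled counts, a library scaling described below, its log2 ratio of replicate 2 over replicate 1 was 0.25. By that scaling Gm20559 (0.16), Xist (-0.19) and Gm42047 (-0.22) were nearer to equality. The RNA that RefSeq calls Norad, 2900097C17Rik in the annotation, was at 118 and 65.2 TPM (mean 91.7 ± 37.5 SD). Norad is a cytoplasmic RNA that binds Pumilio proteins and so limits their repression of target mRNAs.

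The motif TGTANATA that Pumilio proteins recognise was searched on the sense strand of the leading transcripts. It occurred 11 times in the 4915 bases of 2900097C17Rik, more than in any other member, and the longer Xist held 6 occurrences. At least 1 occurrence was found in 29 of 100 members and in 25.1% of the leading transcripts of 14587 detected genes. Of 2210 such transcripts of 4000 to under 6000 bases, 43.3% held the motif and 2 held as many as 2900097C17Rik, that one included. Bases 1472 to 1631 hold 2 of its occurrences, in capitals (GENCODE M21, chr2:156391349-156391508, minus strand):
2900097C17Rik: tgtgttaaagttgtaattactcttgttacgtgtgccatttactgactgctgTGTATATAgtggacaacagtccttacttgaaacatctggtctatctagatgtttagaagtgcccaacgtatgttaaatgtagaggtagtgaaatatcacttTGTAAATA

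1810026B05Rik, RefSeq's Chaserr, a repressor of the neighbouring chromatin remodeller gene Chd2, was at 47.2 and 30.7 TPM while Chd2 was at 72.9 and 49.4 TPM. The 2 genes share 2628 exon bases on the same strand, so their counts could be split between them. 1700020I14Rik, RefSeq's Oip5os1, known as Cyrano and for triggering decay of a microRNA, was at 26.6 and 17.9 TPM. Gm14005, RefSeq's Morrbid, which represses the cell death gene Bcl2l11 in short-lived myeloid cells, was near the threshold at 9.85 and 5.95 TPM on 44 and 42 counts, with Bcl2l11 at 64.9 and 48.9 TPM. All 3 were higher in replicate 1 in deposited TPM. In TMM-scaled counts, a library scaling described below, the log2 ratios of replicate 2 over replicate 1 were -0.45 and -0.54 for the first pair and 0.08 for Gm14005, whose direction therefore turned with the scaling.

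AW112010, an RNA induced by inflammatory stimuli that has been reported to encode a small protein, went the other way, at 56.5 and 89.8 TPM (mean 73.1 ± 23.5 SD). Dubr was at 12.9 and 6.99 TPM, and Epb41l4aos was at 10.6 and 7.55 TPM. Among 31 names of known noncoding RNAs that were looked up, those with a lincRNA transcript that stayed below the level included Pvt1 (3.32 and 4.25 TPM), Mirt1 (1.24 and 1.09 TPM), Bvht (1.10 and 0.69 TPM) and Ptgs2os2 (0.69 and 0.29 TPM). Meg3 was listed at 0 TPM in both libraries. Tug1 (67.9 and 51.6 TPM) and Firre (31.7 and 26.9 TPM) were as high as many members but have no lincRNA transcript in this annotation.

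The remaining members of the 12 highest are less well described. Gm20559, which lies 26129 bases from the interferon-induced gene Samd9l and on its strand, was at 461 and 261 TPM (mean 361 ± 141 SD), while Samd9l was at 195 and 133 TPM. Gm36161 was at 176 and 68.4 TPM (mean 122 ± 76.0 SD). Of its 31-mers, 81.9% also occur in transcripts of other genes, 737 in all. The protein-coding gene Gm21188, at 178 and 92.5 TPM, alone holds 75.7% of them, so counts could be split between these 2 genes. Gm42047 was at 137 and 103 TPM, and Gm26522, which overlaps the protease gene Ctsc on the opposite strand, was at 112 and 66.7 TPM, with Ctsc at 329 and 314 TPM. All 4 were higher in replicate 1 in TPM, but Gm20559 was not in TMM-scaled counts (log2 ratio of replicate 2 over replicate 1 of 0.16).

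By the annotation, 69 members overlap no protein-coding gene and 31 overlap at least 1, 23 of them on the opposite strand and 10 on the same strand. Exon bases are shared with a coding gene by 21 members, 16 of them across strands. Gm26778 is the extreme case, since all of its 3805 exon bases lie opposite an exon of the receptor-auxiliary subunit gene Kctd12. It was at 48.4 and 18.1 TPM and Kctd12 at 170 and 78.3 TPM, so both were higher in replicate 1. Gdap10 overlaps the NAD synthesis gene Nampt on its own strand and was at 59.7 and 64.6 TPM, with Nampt at 62.3 and 50 TPM.

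Some of the overlapped genes belong to macrophage signalling and interferon responses. The pairs below were picked from the 31 members that overlap a coding gene, and the share of such genes was not computed. Gm26857, at 86.3 and 67.3 TPM, lies opposite the Src-family kinase gene Lyn (130 and 128 TPM). 9330175E14Rik, at 6.55 and 10.2 TPM, lies opposite the MHC class I activator gene Nlrc5 (167 and 182 TPM), and Gm26637, at 7.09 and 6.34 TPM, lies opposite Eif2ak2, the double-stranded RNA-dependent kinase (103 and 96.1 TPM). In each of these pairs the coding gene was the higher in both libraries.

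Of the 69 members outside coding genes, 27 lie within 5000 bases of one. Of these, 11 lie before the start of that gene and on the opposite strand, 6 of them within 1000 bases. 5031425E22Rik (29.1 and 32.2 TPM) lies 172 bases from Kmt2e, and 5930403N24Rik (10.7 and 11.5 TPM) lies 482 bases from Marcks, which was at 205 and 177 TPM. Another 11 members lie more than 100000 bases from any coding gene. The nearest coding gene was at 1 TPM or more in both libraries for 74 members, and was above the member in both for 41 and below it in both for 27. Over these 74 pairs, the log2 ratios between the libraries had Pearson's r = 0.25 and Spearman's rho = 0.41, given as a description, since both genes of a pair share library, depth and fragment length.

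The members were short and simple in structure. The leading transcript, the one with the highest mean TPM, had a median of 1910 bases, 2 exons and 46.7% GC, against 2494 bases, 5 exons and 48.7% over detected genes, those with at least 10 expected counts in both libraries. It had a single exon in 25 members (25.0%), against 17% of detected genes. Only 1 transcript was listed for 42 members (42.0%), against 24.0% of detected genes. The 471 detected genes with a lincRNA transcript, members included, had a median of 1935 bases and 2 exons, 23.4% with a single exon and 58.4% with 1 transcript. Against these, the members were alike in length and exons and more often had several transcripts listed.

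Of 308 transcripts listed for members, 182 reached 1 TPM in both libraries. They included 19 of 24 retained-intron transcripts and 156 of 277 lincRNA transcripts. The leading transcript was a lincRNA in 91 members and a retained intron in 7, among them 1810026B05Rik and the microRNA hosts Mir99ahg and A330023F24Rik. The counts of transcripts and of retained-intron leads were not made over all detected genes, so they describe the members only. Among the 58 members with several transcripts, the median share of the leading one was 66.9% of the gene's TPM in replicate 1 and 56.2% in replicate 2, and 46 (79.3%) had the same leading transcript in both libraries, near the 76.2% of detected genes with several transcripts and the 80.4% of those at 5 TPM.

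Lncpint was the most divided, with 12 of 16 transcripts at 1 TPM or more. Its leading transcript Lncpint-211 held 20.7% and 26.6% of TPM. Dleu2 and Mir99ahg followed with 7 transcripts each, then Gm20559 with 6. In Gm20559, the 358-base transcript Gm20559-206 was at 192 and 42.3 TPM while the 2993-base Gm20559-202 was at 118 and 108 TPM. In these TPM values, most of the difference between the libraries in this member lay in its short transcript. The gene's expected counts were close, at 8791 and 8869. Gm20559-206 held 41.6% and 16.2% of the gene's TPM here, but 41.8% and 34.4% in the second quantification, described below.

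**Figure D2:**
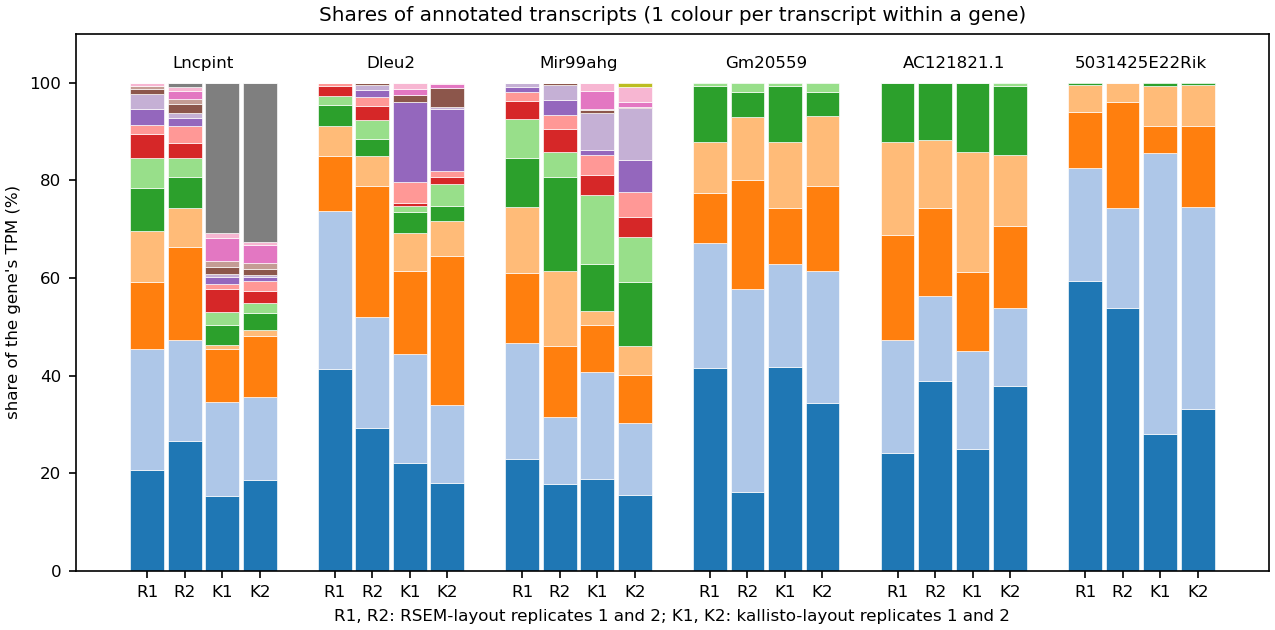
Share of each annotated transcript in the gene's TPM (percent) for the 6 members with the most transcripts at 1 TPM, in the RSEM-layout tables (R1, R2) and the kallisto-layout tables (K1, K2) of replicates 1 and 2. Colours mark transcripts within a gene, and the large upper block of Lncpint in K1 and K2 is Lncpint-213, at 30.7% and 32.7% there and at 0% and 0.964% in R1 and R2.

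Between the libraries, 2 members were more than 2-fold higher in replicate 2 (2.45% of detected genes were) and 6 were more than 2-fold lower (8.80% of detected genes). Against the 7538 detected genes that also reach 5 TPM in both libraries, the shares were 1.10% higher and 3.54% lower. The 2 higher ones were Rmrp and Gm26917, with log2 ratios of replicate 2 over replicate 1 of 4.77 and 1.30. The 6 lower ones were Gm26778 (-1.42), Gm36161 (-1.36), Gm26853 (-1.07), Gm26823 (-1.04), BC002059 (-1.04) and 1300002E11Rik (-1.0). The median log2 ratio was -0.32 over members and -0.28 over detected genes. In TPM, 69 members were higher in replicate 1 and 31 in replicate 2, close to the 70.4% and 29.3% of detected genes.

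The direction of this split depended on the scaling. With library-scaled counts (CPM) after TMM normalisation, which brings the median ratio of detected genes to 0.01, 8 members were more than 2-fold higher in replicate 2 (4.95% of detected genes were) and 2 lower (2.87%). By any amount, 51 members were higher and 49 lower, against 50.7% and 49.3% of detected genes. Relative to the median gene in TPM, the split was also 8 higher (4.99% of detected genes) and 2 lower (3.84%). Rmrp and Gm26917 were past 2-fold higher under both scalings, and Gm26778 and Gm36161 past 2-fold lower. Some members turned with the scaling. The 158-base Gm28872 was at -0.62 in TPM and 1.11 in TMM-scaled counts. Gm20559, with 8791 and 8869 expected counts, was at -0.82 and 0.16. Mir142hg was at 0.73 in TPM and 1.60 in TMM-scaled counts.

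**Figure D3:**
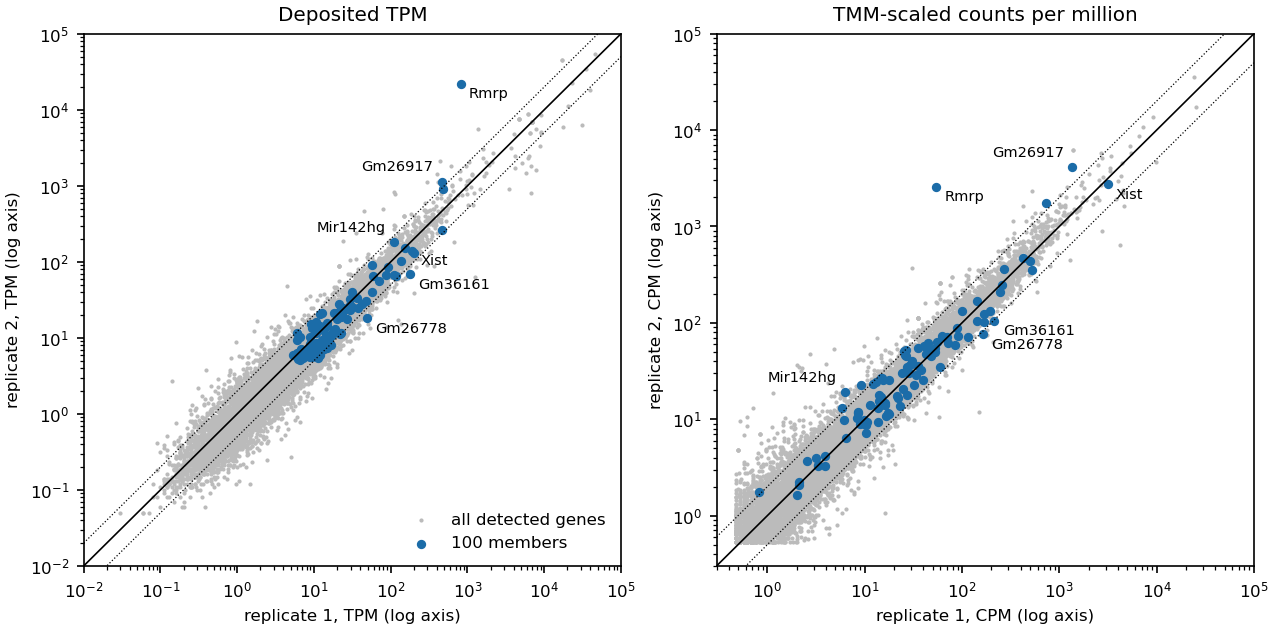
Replicate 2 against replicate 1 (both axes log) in deposited TPM on the left and in TMM-scaled counts (CPM) on the right, with detected genes in grey and the 100 members in blue. The solid line marks equality and the dotted lines a 2-fold difference, and Rmrp, with a log2 ratio of 4.77 in TPM, is the member farthest from them.

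The tables also give a posterior interval for each TPM value. The intervals of the 2 libraries did not overlap in 58 members, against 38.6% of all detected genes and 52.6% of those that reach 5 TPM in both libraries. Xist ran from 180 to 183 TPM and from 131 to 136 TPM in the 2 libraries while Gm28872 ran up to 301 TPM in replicate 1 and from 87.5 to 174 TPM in replicate 2. These intervals surround a posterior mean rather than the deposited TPM, which can lie outside them: Rmrp, at 22113 TPM in replicate 2, has an interval of 20602 to 21488 TPM. They cover counting and assignment error within a library and not the spread between libraries.

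The second quantification, with the kallisto layout, was set beside the first after both were rescaled to the same total over protein-coding and long noncoding genes. This set held 35.9% and 33.2% of TPM in the RSEM-layout tables but 29.0% and 6.49% in the kallisto-layout tables. After rescaling, 84 members were within 2-fold in both libraries, against 85.2% of detected genes and 95.3% of those at 5 TPM. In both libraries 9 members were more than 2-fold higher in the kallisto layout (7.73% of detected genes were, and 1.58% of those at 5 TPM) and 1 was more than 2-fold lower (0.802% and 0.889%). On the log2(rescaled TPM + 1) scale, Pearson's r between the quantifications over the 100 members was 0.78 in replicate 1 and 0.86 in replicate 2. It was higher over detected genes (0.925 and 0.946) and over those at 5 TPM (0.912 and 0.942). These values are descriptions across genes that share a library.

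**Figure D4:**
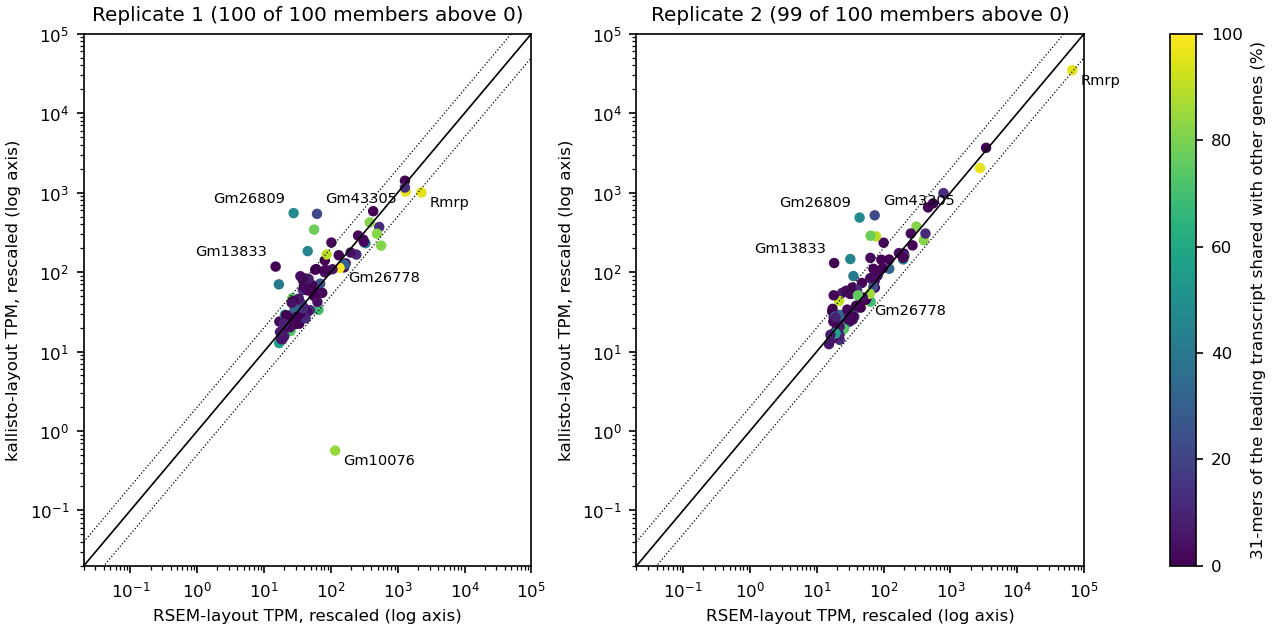
Rescaled kallisto-layout TPM against rescaled RSEM-layout TPM (both axes log) for members in each library, coloured by the share of the leading transcript's 31-mers found in transcripts of other genes. Solid and dotted lines mark equality and a 2-fold difference, and Gm10076, listed at 0 in the kallisto layout of replicate 2 and so not drawn there, lies farthest below.

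The member lower in the kallisto layout was Gm10076. In the RSEM layout it was at 41.7 and 27.9 deposited TPM, on 136 and 120 counts, but its log2 ratio of kallisto over RSEM layout was -7.68 in replicate 1 and it was listed at 0 in replicate 2. Its 383-base single-exon transcript nearly repeats that of Rpl41, a ribosomal protein gene at 154 and 134 TPM. Of its bases, 381 lie in 31-mers that Rpl41 transcripts also hold and 2 do not. The stretch with both of these, in capitals, is shown because it holds what these transcripts do not share (GENCODE M21, 160 bases, chr14:105681929-105682088, plus strand):
Gm10076: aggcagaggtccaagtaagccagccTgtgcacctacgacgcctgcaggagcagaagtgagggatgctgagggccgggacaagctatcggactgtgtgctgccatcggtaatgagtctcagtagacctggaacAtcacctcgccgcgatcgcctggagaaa

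Among the 9 members higher in the kallisto layout, Gm26809 had log2 ratios of 4.32 and 3.47 and Gm43305 of 3.12 and 2.82. Gm13833 followed at 2.98 and 2.84, Gm43042 at 2.61 and 2.17, and Gm46430 at 2.03 and 2.20. The others were Gm47761, 2310001H17Rik, 1110002J07Rik and Gm47903, with the lowest value 1.04. The share of 31-mers found elsewhere was 47.4% for Gm26809, 21.6% for Gm43305, 77.4% for Gm43042, 45.0% for Gm46430 and 40.3% for Gm47761. It was only 3.28% for 2310001H17Rik, 2.35% for Gm47903, 1.59% for 1110002J07Rik and 0% for Gm13833. Over the 10 discordant members the median share was 31%, against 4.10% over the others, and 4 of the 10 were below 10%.

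A high share did not always go with discordance. Of 16 members with at least 50% of 31-mers shared, 2 were more than 2-fold apart in both libraries. Gm26778, with 99.3% of 31-mers shared, Kctd12 being its leading partner, had log2 ratios of -0.26 and -0.32, and Gm42418, with 96.3%, had -0.36 and -0.44. The partner of Gm42418, CT010467.1, was itself discordant. Its rescaled TPM was 126 and 1396 in the RSEM layout and 2659 and 4912 in the kallisto layout. Some members named above were within 2-fold in both libraries: Xist at -0.52 and -0.47, Lncpint at 0.44 and 0.49, 2900097C17Rik at -0.51 and -0.45, and Mir155hg at -0.17 and 0.03. Gm14005 was not, at 0.66 and 1.51.

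The quantifications also differed in isoforms. The leading transcript by TPM differed in 21 of 58 members with several transcripts (36.2%). It differed in 30.1% of detected genes with several and in 26.1% of those at 5 TPM. Taken by counts instead of TPM, the leading transcript was the same in 49 of the 58 members, against 37 by TPM. No share of detected genes was computed by counts. Gm14005 is an example, since its transcript Gm14005-201 held 66.9% and 65.7% of the gene in the kallisto layout and was listed at 0 in the RSEM layout, where Gm14005-204 held 68.1% and 57.2%. In 1110002J07Rik the 2229-base transcript led in the RSEM layout (73.0% and 59.8%) and the 388-base one in the kallisto layout (67.6% and 70.8%). In 2900097C17Rik and Xist the leading transcript was the same in both.

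Close to the level of 5 TPM, the members just inside were Gm26816 (6.51 and 5.04 TPM), 4632415L05Rik (6.23 and 5.30), Gm13833 (5.35 and 6.04), Gm26823 (11.2 and 5.45) and Gm38399 (7.19 and 5.48). Just outside were Gm34643 (4.99 and 5.0 TPM), Gm27017 (4.97 and 5.28), Gm47242 (4.94 and 15.7), Gm4258 (5.02 and 4.86) and 2210408F21Rik (6.23 and 4.79). In all, 42 genes with a lincRNA transcript reached the level in 1 library only, these 5 among them and the names left out not counted. All 100 members had at least 10 expected counts in both libraries and 90 had at least 100.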

How the data were processed

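Total RNA sequencing of 2 libraries was used as deposited. Expected counts and TPM per gene and transcript (RSEM column layout) and estimated counts and TPM per transcript (kallisto column layout) were made by the authors, on mm10 with GENCODE M21 per the deposited file notes; neither the programs nor the strand setting is given in the sources used here. Members and gene lists were chosen with earlier results of these data known. Ratios between libraries used deposited TPM without a pseudocount, beside TMM (edgeR 4.0.16) and DESeq2 1.42.0 size factors as alternative scalings of rounded expected counts. No test was run, since there is 1 group. Kallisto-layout TPM was summed per gene. Named genes were the 12 highest members, the 4 largest ratios between libraries each way with at least 100 counts, the 5 largest between quantifications each way, microRNA hosts named Mir-hg, a list of 31 known noncoding RNAs, 5 genes on each side of the threshold and 6 with most transcripts; other named members were chosen after their values were seen. The ratio steps were tested on simulated data. Sequences came from GENCODE M21 transcripts and RefSeq. Alternatives covered the level, scaling, pseudocount and quantification.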

Additional observations from a re-analysis of the deposited data

How the results depend on the processing

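The number of members depended most on the table and level used. It was 63 with kallisto-layout TPM as deposited, 205 with RSEM-layout TPM rescaled to the common gene set, 862 with rescaled kallisto-layout TPM, 188 at 2 TPM and 58 at 10 TPM. With posterior mean TPM it was 110, of which 99 were among the 100. With either library alone it was between 112 and 130. Of the 100, 35 kept the level in kallisto-layout TPM as deposited and 99 in the rescaled values. The members' share of TPM (mean 1.60%) became 4.76% of rescaled TPM, and 0.302% without Rmrp, Gm26917 and Gm42418, a choice made after seeing the data; each library alone gave 0.512% to 2.68%. Of the 8 members over 2-fold apart between libraries, the count became 98 with kallisto-layout TPM as deposited, where the median detected gene moved by -2.28 on the log2 scale, 5 with these values rescaled and 4 with a pseudocount of 1 TPM. Between quantifications, 10 members became 5 without rescaling (1 higher and 4 lower in the kallisto layout), and 12 to 14 with 1 library at a time. The median share of the leading transcript (61.6%) became 77.4% of expected counts. Members with the same leading transcript in both quantifications numbered 37 by TPM and 49 by counts. The cause of these shifts was not tested. Single members named by rule were followed relative to the median gene, in TMM-scaled counts, in posterior mean TPM and in rescaled kallisto-layout TPM. None of those past 2-fold between libraries in deposited TPM changed sign, but Gm28872, at -0.62 in TPM, was at 1.11 in TMM-scaled counts. 1300002E11Rik was not followed, nor was kallisto-layout TPM as deposited, where Gm26917 was at 409 and 238 TPM. Members with few counts, such as Gm28872, set the limit of precision. No paired analysis was possible because the 2 libraries form a single group.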

Other observations

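Near Setd1b on chromosome 5, AI480526 overlaps 2 other members. It (12.1 and 20.6 TPM) shares 1622 exon bases with 4932422M17Rik (6.04 and 6.32 TPM) and 1525 with Gm38102 (8.95 and 8.40 TPM), both on the opposite strand. AI480526 had a log2 ratio between libraries of 0.77 and Gm38102 of -0.09. D730003I15Rik, at 12.1 and 14.4 TPM, lies 6415 bases before the start of Atf3, a stress-response transcription factor at 52.2 and 69.3 TPM, and both were higher in replicate 2. After Rmrp and Gm26917, the member with the highest log2 ratio of replicate 2 over replicate 1 in deposited TPM was Gm47761 (5.98 and 11.7 TPM, on 193 and 425 counts), which the kallisto layout put 2.07 and 1.33 higher on the log2 scale. Ptgs2, the gene beside Ptgs2os2, was at 32.4 and 11.5 TPM, and Ptgs2os2 itself rested on 21 and 10 counts. Kcnq1ot1, which has no lincRNA transcript, was at 6.11 and 3.30 TPM on 11272 and 6674 counts.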
